A study of Mus musculus with 3 samples.

Results

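Far intergenic H3K27ac peaks are stretches of chromatin carrying acetylated lysine 27 of histone H3. By the authors' annotation they lie outside genes and a long way from any transcription start. They were taken as the peaks on chromosomes 1 to 19 that the authors' annotation classed as intergenic, with a peak centre more than 50000 bp from the nearest transcription start site (TSS) and with no repeat or other named element at the centre except a CpG island. The rule left 1162 peaks of 17564 in the H3K27ac list, or 6.62%. Of 17450 peaks on chromosomes 1 to 19, 4751 were intergenic and 1685 of these lay beyond 50000 bp. A repeat at the centre removed 523 of the 1685. A further 6 peaks met the other conditions on the sex chromosomes and were left out.

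H3K27 acetylation is laid down by the coactivators p300 and CBP at active promoters and active enhancers. An enhancer can act over long distances through chromatin loops, often within the same topological domain as its target, and it need not act on the nearest gene. In fat cells, acetylated enhancers are bound by C/EBP factors, glucocorticoid receptor and AP-1 early in differentiation and by PPARγ with RXR later. Many genes of development and signalling stand beside long stretches without protein-coding genes, called gene deserts, that hold several such enhancers.

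The cells were beige adipocytes, fat cells of white depots that can acquire thermogenic features. The source was stromal vascular fraction (SVF) cells of inguinal white adipose tissue (iWAT) of C57BL/6 mice, differentiated in vitro, and the labels give no genetic change. There was 1 library of H3K27ac ChIP, 1 of Foxp4 ChIP and 1 of input DNA, all from cells of the same culture scheme. Foxp4 is a forkhead transcription factor. All cultures were grown in medium with 20% serum for 3 days and on to confluence, then induced for 48 h in 10% serum. The induction cocktail held troglitazone at 5 µM, dexamethasone at 1 µM, T3 at 50 nM, insulin at 5 µg/ml and isobutylmethylxanthine at 0.5 mM, and only T3, insulin and troglitazone stayed on for the 6 days that followed. Dexamethasone activates the glucocorticoid receptor and troglitazone activates PPARγ, and every culture had both. The protocol names an antibody against Foxp4 for all 3 libraries and none against H3K27ac. With 1 library per antibody there is no replicate, so no difference could be tested over samples and none of the differences below has a p-value. Intervals are exact Clopper-Pearson 95% intervals of a share of peaks or genes. They cover counting error only, and neighbouring peaks are not independent. Depth is unknown, since the lists hold no read numbers.

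Markers were checked by the number of H3K27ac peaks of any class that the annotation gave to each gene. Of 6 adipocyte markers 5 had a peak (Plin1, Fabp4, Pparg, Cebpa and Lipe) and Adipoq had none. Of 6 markers of beige cells 2 had a peak, Ppargc1a and Ebf2, while Ucp1, Prdm16, Dio2 and Cidea had none. Progenitor markers had a peak in 2 of 3 cases, macrophage markers in 2 of 3, endothelial markers in 3 of 3 and skeletal muscle markers in 0 of 3. The defining thermogenic marker Ucp1 thus lacked H3K27ac peaks in cells labelled beige. The endothelial markers Pecam1, Cdh5 and Kdr had peaks, none of them at a promoter. A promoter peak was found for 4 of 6 adipocyte, 1 of 6 beige, 2 of 3 progenitor and 1 of 3 macrophage markers (Cd68). Over all protein-coding genes the share with a promoter peak was 26.2%. No share of all genes with a peak of any class stands beside the marker counts. What part other cell types had in the far intergenic peaks was not tested.

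The label "intergenic" was checked against RefSeq genes of GRCm38.p6, the assembly of mm10. Of the 1162 peaks, 853 (73.4%, interval 70.8 to 75.9) shared no base with a RefSeq gene body. The other 309 (26.6%) met one: 81 met a protein-coding gene, 215 a long noncoding RNA gene and no protein-coding one, and 13 a gene of another kind only. The protein-coding bodies with most far intergenic peaks were Zfp469 with 12 and Svil, which encodes supervillin, with 5. Ppargc1a, the PGC-1α coactivator of mitochondrial and thermogenic genes, had 4, as had Sox5, a transcription factor gene, and Cd200r3. Here the RefSeq gene bodies reach beyond the transcripts by which the authors' annotation classed the peaks.

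Some of these peaks met a window around a RefSeq start, so that by RefSeq they lay at or close to a start. Of 1109 peaks compared with windows around RefSeq starts, 27 (2.43%, interval 1.61 to 3.52) met one. Their median score was 48 (quartiles 34 and 58.5), against 37 (30 and 46) for the 1082 compared peaks that met no such window. Their median width was 839 bp, against 473 bp. A wide peak has more bases that can meet a window, and this was not corrected for. In 14 cases the whole window, 250 bases before to 50 after the start, lay inside the peak. The sequences of the 6 highest-scoring of these are shown because they let a reader see the DNA beneath the acetylated sites, which range from CG-poor to CG-rich. They come from RefSeq's GRCm38.p6 (mm10) and are written 5′ to 3′ on the strand of the gene, and the window of the protein-coding gene Maml2 stops at its start. Capitals mark matches on either strand to forkhead TGTTTAC, C/EBP TTGCGCAA and TTGCNNAAT, AP-1 TGANTCA, TEAD GGAATG, the glucocorticoid receptor hexamer AGAACA, the GC box GGGCGG, the CCAAT box and the TATA box TATAAA, and overlapping matches are joined.
Gm13470, chr2:46442856-46443155, minus strand, in a peak with score 95 between Zeb2 and Acvr2a: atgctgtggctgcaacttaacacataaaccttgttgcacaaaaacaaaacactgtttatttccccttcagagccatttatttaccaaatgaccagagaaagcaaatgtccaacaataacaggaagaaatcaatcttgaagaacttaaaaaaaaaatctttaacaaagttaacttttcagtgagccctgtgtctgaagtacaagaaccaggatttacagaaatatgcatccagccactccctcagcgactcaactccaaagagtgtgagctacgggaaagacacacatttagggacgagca
Zmiz1os1, chr14:25378463-25378762, minus strand, in a peak with score 91 assigned to Zmiz1: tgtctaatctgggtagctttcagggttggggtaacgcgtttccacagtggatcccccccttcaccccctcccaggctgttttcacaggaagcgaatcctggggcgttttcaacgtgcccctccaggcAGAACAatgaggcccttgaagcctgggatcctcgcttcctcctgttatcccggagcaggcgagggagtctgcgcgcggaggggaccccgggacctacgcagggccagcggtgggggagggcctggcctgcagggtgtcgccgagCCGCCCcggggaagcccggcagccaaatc
C330002G04Rik, chr19:23058043-23058342, minus strand, in a peak with score 88 assigned to Klf9: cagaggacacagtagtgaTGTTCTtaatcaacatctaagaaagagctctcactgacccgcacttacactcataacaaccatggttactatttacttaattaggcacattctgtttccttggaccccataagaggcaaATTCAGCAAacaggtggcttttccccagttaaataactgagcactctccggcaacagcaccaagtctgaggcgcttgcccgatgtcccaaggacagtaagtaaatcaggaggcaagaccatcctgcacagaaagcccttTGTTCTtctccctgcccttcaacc
Maml2, chr9:13297708-13297957, plus strand, in a peak with score 85: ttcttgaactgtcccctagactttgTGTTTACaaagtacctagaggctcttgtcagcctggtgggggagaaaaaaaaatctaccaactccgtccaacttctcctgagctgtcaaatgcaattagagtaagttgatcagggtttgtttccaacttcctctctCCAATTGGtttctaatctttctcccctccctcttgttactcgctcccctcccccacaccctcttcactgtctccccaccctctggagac
0610025J13Rik, chr4:98321708-98322007, plus strand, in a peak with score 77: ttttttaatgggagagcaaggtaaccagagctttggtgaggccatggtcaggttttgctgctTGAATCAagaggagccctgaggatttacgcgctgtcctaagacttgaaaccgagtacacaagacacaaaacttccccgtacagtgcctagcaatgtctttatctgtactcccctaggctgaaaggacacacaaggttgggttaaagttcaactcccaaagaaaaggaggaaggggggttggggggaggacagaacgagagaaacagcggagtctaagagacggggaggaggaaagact
6430573P05Rik, chr3:79286605-79286904, plus strand, in a peak with score 58: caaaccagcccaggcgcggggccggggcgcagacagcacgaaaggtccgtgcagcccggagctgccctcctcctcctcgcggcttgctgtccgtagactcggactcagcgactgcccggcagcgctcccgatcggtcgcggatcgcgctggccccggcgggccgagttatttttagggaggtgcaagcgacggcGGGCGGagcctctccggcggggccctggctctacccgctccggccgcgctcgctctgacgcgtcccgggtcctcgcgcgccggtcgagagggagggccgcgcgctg

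These windows differed widely in base composition. The Gm13470 window was 39.0% G and C with 3 CG pairs, and the 6430573P05Rik window 74.3% with 45. Over the 14 windows the median GC content was 50.8%, against 53.0% over all 31365 RefSeq start windows in the table. The ratio of observed to expected CG pairs had a median of 0.30 in the 14 windows and 0.39 in all. The forkhead letters were found in 1 of the 14, that of Maml2, a coactivator of Notch signalling, against 3.71% of all windows. The AP-1 letters were found in 2 of the 14, against 7.85%, the GC box in 3, against 36.0%, and CCAAT in 5, against 37.3%. The relaxed C/EBP letters were found in 1 of the 14, against 2.41%, and the glucocorticoid hexamer in 2, against 19%. The C330002G04Rik window, in the widest far intergenic peak of the list, held the C/EBP match and 2 copies of the hexamer. The Zmiz1os1 window held 1 copy of the hexamer. TEAD letters were in 1 of the 14 and TATAAA in 1, against 14.6% and 13.6% of all windows, and TTGCGCAA in 0, against 0.179%. A match is only a run of letters, and 14 windows are too few to read a share from.

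Far intergenic peaks were lower and narrower than the list as a whole and close to deep intronic peaks. The score is the authors' whole number for each peak, at least 20 in this list, and is compared here only between peaks of the list. The median score of far intergenic peaks was 37 (quartiles 30 and 46, range 20 to 153). It was 39 (30 and 52) for 2180 intergenic peaks without a repeat within 50000 bp of a TSS, 37 (30 and 45) for 1063 intronic peaks without a repeat beyond 50000 bp, 51 (38 and 72) for 6348 promoter peaks, whose centres lie within 1000 bp of a TSS, and 40 (31 and 56) for all 17450 peaks. The median width was 474 bp for far intergenic peaks (quartiles 377 and 687.8), 523.5 bp for nearer intergenic, 469 bp for deep intronic, 661 bp for promoter and 530 bp for all peaks. Together the far intergenic peaks covered 694 kb. Of them 122 (10.5%) were over 1000 bp wide, against 16.7% of all peaks. Far intergenic peaks in a repeat, left out here, had a median score of 37 and were 437 bp wide at the median. Across the 1162 peaks the score went with the width (Spearman's rho 0.36) and hardly with the distance to the TSS (rho -0.072). Both values are descriptions over peaks of 1 library.

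**Figure D1:**
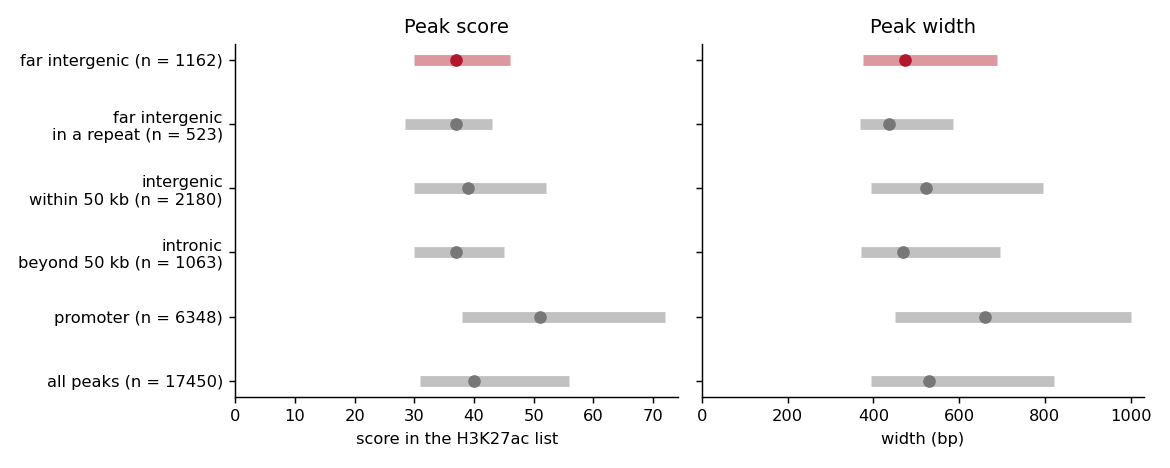
Score (left, no unit) and width in bp (right) of H3K27ac peaks by class, with the number of peaks in each class; points are medians and bars run from the lower to the upper quartile. Far intergenic peaks (red, top row) have a median score of 37 and a median width of 474 bp, against 51 and 661 bp at promoters.

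A CpG island at the peak centre, typical of promoters of broadly used genes, was given for 24 far intergenic peaks (2.07%, interval 1.33 to 3.06), against 4.59% of nearer intergenic peaks, 0.282% of deep intronic peaks and 7.44% of all peaks. The 24 had a median score of 57.5, against 37 for the 1138 without an island. Of the 24, 20 met a RefSeq gene body. The Zmiz1os1 and 6430573P05Rik windows printed above are in island peaks.

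The 10 highest scores ran from 153 to 100. The top peak, score 153 and 1716 bp wide, lay 57.8 kb upstream of Lncppara, a noncoding RNA gene, at chr15:85645115-85646830. A peak with score 117 lay 9.84 kb from it and 53.2 kb upstream of Wnt7b, a Wnt ligand. Wnt7b was also the protein-coding gene nearest to the top peak, at 63.3 kb. The peak 60.4 kb downstream of the start of Rps6ka1, a kinase downstream of ERK, had a score of 120 and a CpG island. By RefSeq it met the body of the protein-coding gene Gm34296. Peaks with scores of 122 and 111 were assigned to Swap70, which acts in actin and Rac signalling, at 76.6 kb, and to Sorl1, a sorting receptor, at 126 kb. These are distances to the TSS. The nearest protein-coding gene bodies were Sbf2 at 8.88 kb and Sorl1 itself at 13.1 kb. The remaining 5 were assigned to Zfp958, a zinc finger gene (score 137, with a CpG island), Gm30551 (109), Pcdh1, a protocadherin (108), Gm4668 (102, beside Tgfbr2) and Rbx1, a subunit of cullin ubiquitin ligases (100). The Sorl1 peak stood alone, with no other H3K27ac peak within 312 kb.

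The widest far intergenic peak, 3012 bp with a score of 88, lay 83.8 kb upstream of Klf9, a glucocorticoid-induced Krüppel-like factor that takes part in adipogenesis. Next were a peak of 2944 bp near Tgfbr2, 1 of 2814 bp 66.4 kb from Cd180, 1 of 2570 bp 83.0 kb from Cebpb and 1 of 2357 bp 60.8 kb from Ufm1. Unlike the distance to Klf9, which runs to its TSS, these run to the nearest protein-coding gene body. For the widest peak that body was Trpm3, at 60.5 kb. Cebpb encodes C/EBPβ, which acts early in fat cell differentiation. The distance to the nearest TSS had a median of 101702 bp (quartiles 70040 and 179040). The farthest peak, score 59, lay 1648292 bp from the start of Efnb2, an ephrin ligand, and the next 4 were assigned to Ppp6c, 4930524C18Rik, 1700030C10Rik and Rab28 at 1329825 to 1015625 bp. The nearest protein-coding gene body was closer for the Ppp6c peak (Lrp1b, 38.8 kb) and the 1700030C10Rik peak (Gm9257, 81.7 kb). For the peaks of Efnb2, 4930524C18Rik and Rab28 it lay 1604, 1371 and 933 kb away. Of the 1162 peaks 635 lay upstream of the start of the assigned gene and 527 downstream, so 54.6% were upstream. The share was 74.1% for nearer intergenic and 18.3% for deep intronic peaks. It is tied to the class, since bases of a gene downstream of its start do not count as intergenic, and this was not corrected for.

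By distance, the median score stayed between 37 and 38. It was 38 for 352 peaks at 50 to 75 kb, and 37 for 225 peaks at 75 to 100 kb, 335 at 100 to 200 kb, 220 at 200 to 500 kb and 30 beyond 500 kb. The 5 peaks just inside the limit lay 50097 to 50420 bp from their TSS, with scores from 21 to 37, and were assigned to Gm8883, Pias1, Mir5098, Gm10377 and Mark1. The 5 just outside it lay 49945 to 49741 bp away, with scores from 27 to 43, and were assigned to Gm12724, 5430421F17Rik, Ccnl1, Olfml2b and Toporsl.

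Far intergenic peaks were spread unevenly over chromosomes. Chromosome 13 held 117 of them, which is 10.1% of the far intergenic peaks and 15.8% (interval 13.2 to 18.6) of that chromosome's H3K27ac peaks, while the chromosome held 4.25% of the whole list. Chromosome 3 followed with 94, or 10.4% of its peaks (8.45 to 12.5). At the other end were chromosome 19 with 17 (2.75%, 1.61 to 4.37) and chromosome 11 with 45 (3.12%, 2.29 to 4.16). The share over all 19 chromosomes was 6.66%. RefSeq has 829 protein-coding genes on chromosome 13 and 1609 on chromosome 11, and what part gene density had in these shares was not tested. The Irx1, Gas1, Klf6, Gadd45g and Pik3r1 stretches described below are all on chromosome 13.

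**Figure D2:**
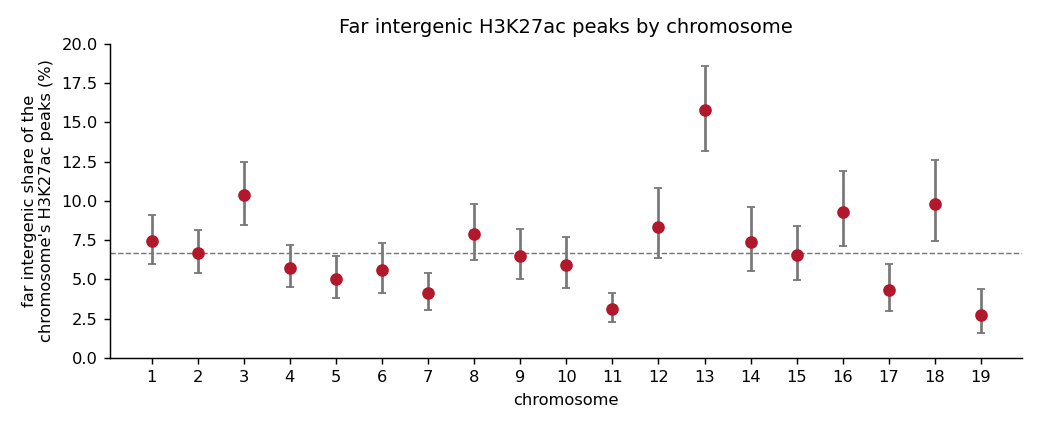
Far intergenic peaks as a percentage of all H3K27ac peaks of each chromosome (y axis) for chromosomes 1 to 19 (x axis); points are shares, bars exact 95% intervals of counting error, and the dashed line the share over all 19 (6.66%). Chromosome 13 stands at 15.8% and chromosome 19 at 2.75%.

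Enhancers of strongly regulated genes often stand in clusters. A far intergenic peak was counted as clustered where another H3K27ac peak of any class lay within 12.5 kb, edge to edge. This held for 549 of 1162 (47.2%, interval 44.3 to 50.2), against 65.9% of nearer intergenic peaks (63.8 to 67.9), 53.4% of deep intronic peaks (50.4 to 56.5) and 57.5% of all peaks. By the distance limit, no promoter peak could be such a neighbour of a far intergenic or deep intronic peak. For nearer intergenic peaks and all peaks it could, and the shares and gaps were not corrected for this. The median gap to the next peak was 15.1 kb for far intergenic peaks, 5.01 kb for nearer intergenic, 9.81 kb for deep intronic and 7.91 kb for all. Of the 549, 461 had another far intergenic peak within reach and 88 had only H3K27ac peaks of other classes. Clustered far intergenic peaks had a median score of 39, against 35 for the 613 with no neighbour, and a median width of 525 bp, against 438 bp. The clustered share was 54.0% at 50 to 75 kb, 48.4% at 75 to 100 kb, 47.8% at 100 to 200 kb, 36.4% at 200 to 500 kb and 33.3% of the 30 peaks beyond 500 kb.

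Joining far intergenic peaks within 12.5 kb of each other gave 882 groups, of which 701 held a single peak and 181 held 2 or more. The largest held 10 peaks in 37.9 kb, 70.6 kb from Cebpb (chr2:167761047-167798963). Along the chromosome their scores were 77, 28, 40, 33, 97, 23, 20, 39, 54 and 35. The first and the fifth were well above the rest, and no peak of the group overlapped Foxp4. The annotation assigned the group to A530013C23Rik, a noncoding RNA gene beside Cebpb, because its TSS is nearer. The start of that gene had an H3K27ac peak with score 88, and a peak with score 108 lay 1188 bp upstream of the Cebpb start.

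A group of 7 peaks in 27 kb stood 152 kb from Tgfbr2, the type II receptor of TGF-β (chr9:116327756-116354745). Their scores were 50, 45, 102, 48, 31, 66 and 58, and the third, the widest, was the only member of the group with a Foxp4 peak. Near Irx1, an Iroquois homeobox gene, 6 peaks in 22.4 kb had scores of 52, 65, 38, 46, 29 and 28. Beside Rxra, the RXRα partner of PPARγ, 5 peaks in 24.6 kb had scores of 29, 33, 79, 23 and 34, with 1 peak standing out and 9.72 kb between the group and the gene body. Near Med13l, a subunit of the Mediator kinase module, 5 peaks in 32.0 kb had scores of 41, 29, 55, 51 and 45, and 1 overlapped Foxp4. Groups of 5 also stood near Ampd3, an AMP deaminase (scores 43 to 71), and Snx19, a sorting nexin (30 to 62).

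Counted by peak centre between neighbouring protein-coding genes, 1083 of the 1162 peaks fell into 538 stretches without one, and 79 centres lay in a protein-coding gene body. Of the 81 peaks that met such a body, 2 reached it only with an edge. Of these stretches 322 held 1 far intergenic peak and 43 held 5 or more, with 321 peaks in all. The highest count was 18 peaks in the 432 kb between Snx19 and Adamts15, a metalloprotease of the extracellular matrix, with scores from 20 to 62. The 240 kb between Cebpb and Ptpn1, a phosphatase that acts on the insulin receptor, held 14 far intergenic peaks among 26 H3K27ac peaks. Stretches between Adamts5 and N6amt1 (1453 kb) and between Zeb2 and Acvr2a (3697 kb) also held 14 each. Zeb2 is a repressor that acts in mesenchymal cells, and Acvr2a a receptor of activins. Over their length this is 5.83 far intergenic peaks per 100 kb beside Cebpb and 0.379 between Zeb2 and Acvr2a.

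Tgfbr2 to Rbms3, Gas1 to Dapk1 and Myc to Gsdmc had 12 each, in 397, 424 and 1786 kb. Gas1 encodes a coreceptor of Hedgehog signalling, and Myc is the growth-promoting transcription factor whose flank is a known enhancer desert in several tissues. Between Rps24 and Zmiz1, a coactivator gene, there were 10. Of these 10 peaks 4 overlapped Foxp4 (interval 12.2 to 73.8%), against 6.45% of all far intergenic peaks. The counts were 1 of 18 beside Snx19, 0 of 14 beside Cebpb, 0 of 14 beside Adamts5, 0 of 14 beside Zeb2, 1 of 12 beside Tgfbr2, 0 of 12 beside Gas1 and 1 of 12 beside Myc. The interval reached 23.2% for 0 of 14 and 26.5% for 0 of 12, so these counts do not set the stretches apart from the overall share, and the Zmiz1 stretch was picked out after its value was seen. Adamts16 to Irx1 had 10, and the stretches beside Med13l, Klf4 and Klf6 had 9 each. Beside Gadd45g there were 8, beside Pik3r1, the regulatory subunit of PI3-kinase, 8, and beside Nrp1, a coreceptor of VEGF and semaphorins, 8. The stretches from Rxra to Col5a1 and from Lpl to Slc18a1 had 6 each.

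**Figure D3:**
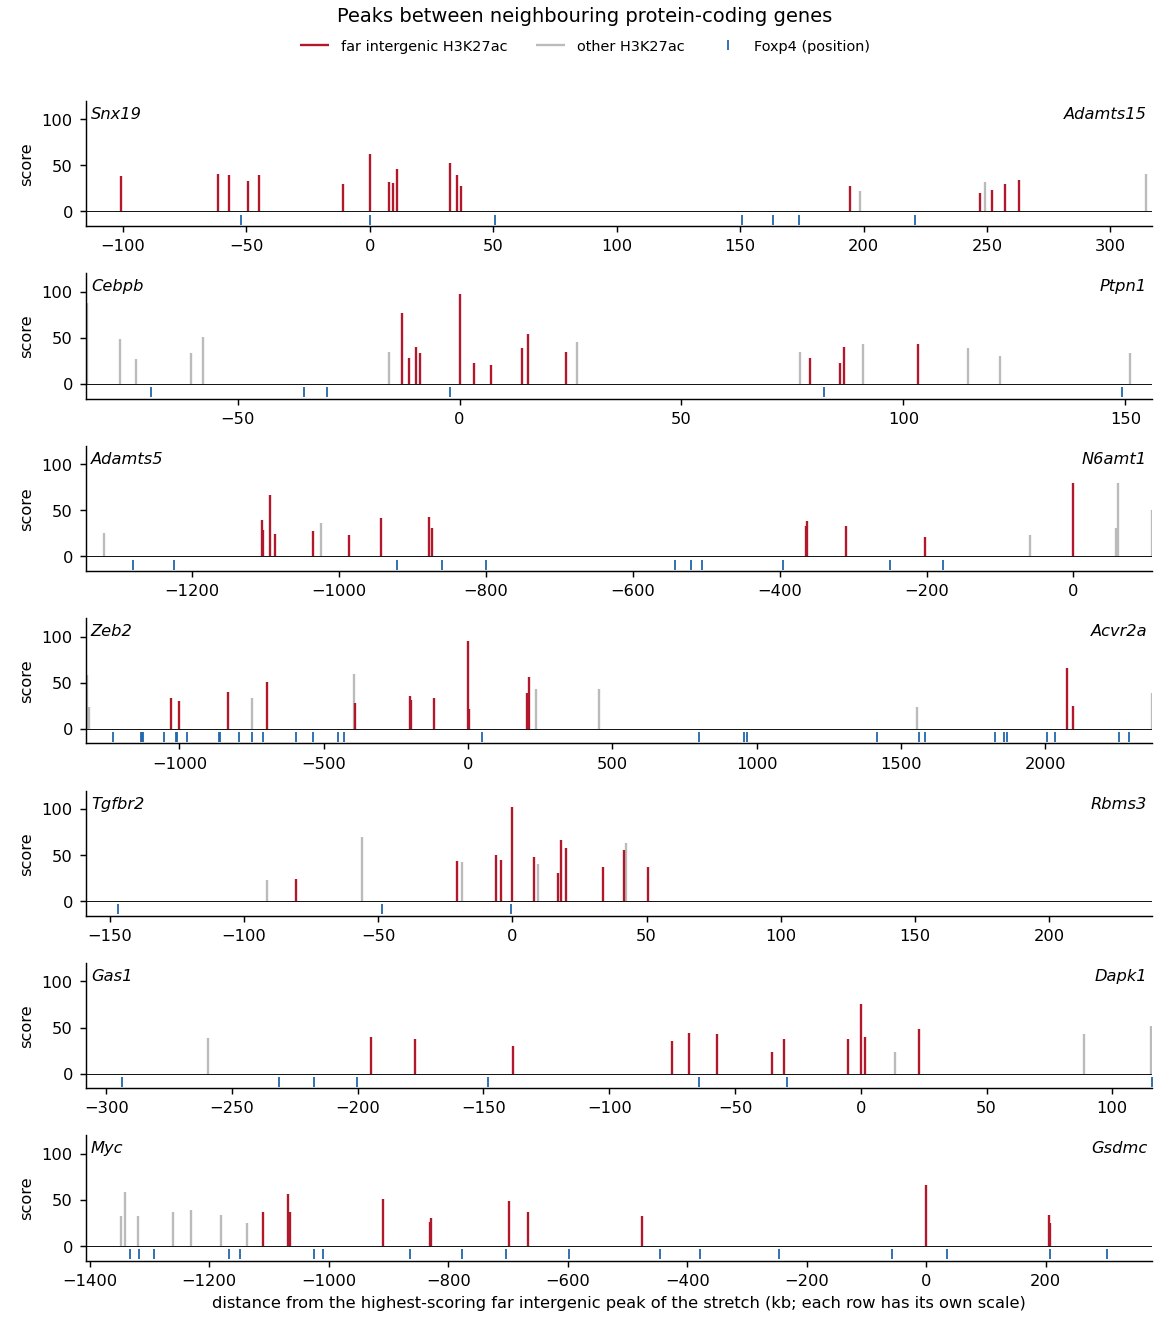
H3K27ac peaks in the 7 stretches between protein-coding genes with 12 or more far intergenic peaks; the x axis is the distance in kb from the highest-scoring far intergenic peak (each row has its own scale, edges are the gene bodies), the height is the H3K27ac score, red lines are far intergenic peaks, grey lines other H3K27ac peaks and blue ticks positions of Foxp4 peaks without height. The Cebpb row has 14 far intergenic peaks, with its highest score of 97 at 0.

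Protein-coding genes beside these stretches were compared for an H3K27ac promoter peak, which marks an active promoter. Beside stretches of at least 100 kb with a far intergenic peak, 355 of 905 flanking genes had one (39.2%, interval 36.0 to 42.5). Beside stretches of at least 100 kb without one, it was 814 of 3421 (23.8%, 22.4 to 25.3), and over all protein-coding genes 26.2%. The stretches with a far intergenic peak were longer, with a median of 382 kb against 206 kb. Where a stretch held 4 or more far intergenic peaks, 70 of 141 flanking genes had a promoter peak (49.6%, 41.1 to 58.2). Snx19, Adamts15, Adamts5, Zeb2, Acvr2a, Tgfbr2 and Myc had one, and Ptpn1, Gas1, Gsdmc and Irx1 did not. Cebpb had none by the limit of 1000 bp and the peak at 1188 bp just outside it.

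The nearest TSS, by which the authors assigned genes, gave 667 genes, of which the authors' annotation calls 491 protein-coding. Of the 667 genes 220 (33.0%, interval 29.4 to 36.7) had an H3K27ac promoter peak, and of the protein-coding ones 206 of 491 (42.0%, 37.5 to 46.5). The protein-coding genes assigned to nearer intergenic peaks had one in 50.6% of cases (47.8 to 53.4) and those of deep intronic peaks in 43.6% (39.2 to 48.1). Among genes with 3 or more far intergenic peaks 38 of 119 (31.9%) had a promoter peak, and among those with 1 it was 145 of 441 (32.9%). Each of these 2 shares lies within the interval of the other (23.7 to 41.1% and 28.5 to 37.5%). Of the 1162 peaks 329 (28.3%) were assigned to a noncoding RNA gene and 18 to a pseudogene, against 815 to protein-coding genes.

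Snx19 had the most far intergenic peaks assigned, 13, with scores from 27 to 62. It was followed by 1700019E08Rik beside Zeb2 and Gm4668 beside Tgfbr2 with 12, A530013C23Rik with 10 and Dapk1, a death-associated kinase, with 9. H2afy3 beside Myc and Mir21c beside Pard3 had 8. With 7 peaks each, 1700016G22Rik beside Klf6, Adamts5, Irx1, Klf4 and Mir7237 beside Zfp469 were tied. The promoters of Dapk1 and Adamts5 had H3K27ac peaks with scores up to 109 and 75, and Snx19 and Klf4 had lower ones, with scores of 28 and 35.

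Gene lists were described by the number of genes with at least 1 far intergenic peak assigned, beside 2.38% of all protein-coding genes of RefSeq, 492 of 20665. The 492 are the 491 above and 1 gene that is protein-coding in RefSeq only. What part the length of a gene's flanks had in this count was not tested. Of 23 adipogenic transcription factors 5 had such a peak: Klf9 with 5 peaks (highest score 88), Rxra with 6 (79), Klf4 with 7 (61), and Tcf7l2 and Nr3c1 with 1 each (37 and 23). Klf4 acts early in adipogenesis, Tcf7l2 is the transcription factor of Wnt signalling and Nr3c1 the glucocorticoid receptor. Among 25 genes of lipid droplets and mature adipocytes 1 had a far intergenic peak, Lpl, lipoprotein lipase (score 33). The interval of this share, 0.101 to 20.4%, also holds 2.38%. Of the 25 genes 15 had a promoter peak. Among 24 thermogenic genes 1 had a far intergenic peak, Ppargc1a (4.17%, interval 0.105 to 21.1, which also holds 2.38%). It had 3, with a highest score of 61 at 275 kb upstream of the TSS the authors' annotation used, and no promoter peak. By RefSeq all 3 lie inside the Ppargc1a gene body, as does a peak assigned to Mir6417.

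The highest share was that of progenitor and mesenchymal genes, 6 of 20 (30.0%, interval 11.9 to 54.3). Twist2, a bHLH factor of mesenchyme, had 3 peaks with a highest score of 97 at 56.9 kb. Zeb1, a repressor of epithelial genes, also had 3, the highest 84 and with Foxp4. Thy1, a surface marker of stromal cells, had 2 with scores up to 56, and Dlk1, the preadipocyte factor Pref-1, had 1 with a score of 51 that overlapped Foxp4. Twist1 and Runx1 had 1 each. Extracellular matrix genes had 7 of 25 (28.0%, 12.1 to 49.4), among them Postn (51), Col5a1 (50), Col3a1 (47) and Col1a2 (45), where the values are the highest scores. Postn encodes periostin and the others fibrillar collagens.

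AP-1 and glucocorticoid response genes had 5 of 24 (20.8%), which were Klf9, Sgk1 (74), Errfi1 (58), Jun (30) and Nr3c1. Sgk1 is a kinase induced by glucocorticoids, Errfi1 an inhibitor of EGF receptor signalling and Jun a subunit of AP-1. The single peaks of Sgk1 and Jun overlapped Foxp4. Klf9 and Nr3c1 stand in this list and in that of adipogenic factors, so the lists are not independent. Insulin and growth factor signalling genes had 5 of 26 (19.2%): Pik3r1 with 5 peaks (highest score 65), Igfbp3, a binding protein of IGFs, with 3 (52), Fgfr1 with 2 (33), and Irs2 (44) and Igf1 (39) with 1 each.

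Wnt signalling genes had 3 of 25 (Fzd1, Dkk2 and Fzd7, with highest scores of 48, 30 and 24). Genes of TGF-β and BMP signalling had 2 of 26, Acvr2a with a highest score of 66 and Smad6, an inhibitory SMAD, with 59. HOX and limb patterning genes also had 2, of 20, Shox2 (30) and Tbx18 (27). Lists of other cell types were at 0 of 20 for skeletal muscle, macrophages and hepatocytes, each with an interval up to 16.8%, and 2 of 18 for endothelium. The endothelial genes were Cdh5, VE-cadherin, with 2 peaks and a highest score of 52, and Emcn, endomucin, with 1 of 43, and neither had a promoter peak.

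The counts depend on how peaks are given to genes. When each far intergenic peak was given to the nearest protein-coding gene body instead of the nearest TSS, a choice made after seeing the data, 3.14% of all protein-coding genes had one. Adipogenic transcription factors then had 9 of 23, against 5 by the nearest TSS. Cebpb came in with 10 peaks and a highest score of 97, Ebf1, a factor of adipocyte commitment, with 5 (49), and Nfia, Bcl6 and Nfib with 1 each, while Klf9 dropped out. TGF-β and BMP signalling genes had 5 of 26, against 2, through Tgfbr2 with 10 peaks (highest score 102), its coreceptor Tgfbr3 with 3 (50) and Id2 with 1 (51). Progenitor and mesenchymal genes had 8 of 20, with 13 peaks given to Zeb2 (highest score 95), and extracellular matrix genes 10 of 25. The endothelial list had 1 of 18, against 2, and the hepatocyte list 1 of 20, against 0. The counts of the other 8 lists shown changed by at most 1, but genes within a list could change. In the insulin and growth factor list Fgfr1 dropped out and Foxo1 and Irs1 came in.

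**Figure D4:**
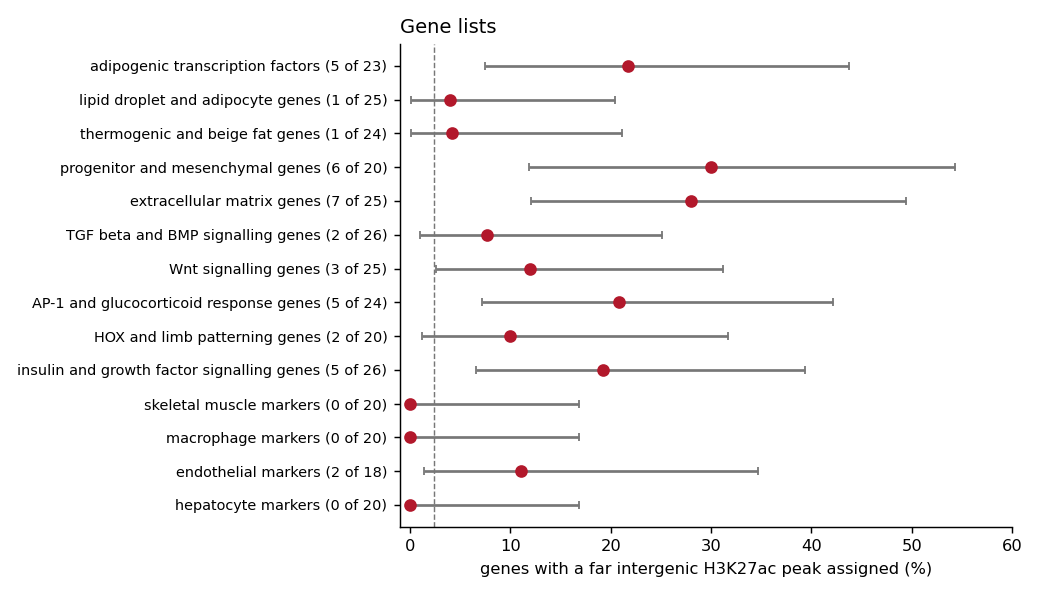
Percentage of genes with at least 1 far intergenic H3K27ac peak assigned (x axis) for 14 gene lists (rows, with counts); points are shares, bars exact 95% intervals of counting error, and the dashed line is the 2.38% of all protein-coding genes. Progenitor and mesenchymal genes are highest at 30.0%, and 3 lists of other cell types are at 0.

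Far intergenic peaks shared bases with Foxp4 peaks in 75 of 1162 cases (6.45%, interval 5.11 to 8.02), each with exactly 1. The share was 7.61% for nearer intergenic peaks (6.54 to 8.81), 5.36% for deep intronic peaks (4.09 to 6.89), 10.9% for promoter peaks (10.1 to 11.6) and 7.95% for all H3K27ac peaks. The intervals of far intergenic, nearer intergenic and deep intronic peaks overlap, and those of far intergenic and promoter peaks do not. A Foxp4 peak lay within 10 kb of 35.4% of far intergenic peaks and of 34.7% of all peaks. The median distance to the nearest Foxp4 peak was 21.3 kb for far intergenic, 20.4 kb for nearer intergenic, 20.0 kb for deep intronic and 19.8 kb for all peaks.

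Overlap with Foxp4 went with the width of the H3K27ac peak. It was 4.85% of far intergenic peaks up to 400 bp wide, 4.84% from there to 600 bp, 6.64% from 600 to 1000 bp and 16.4% (interval 10.3 to 24.2) over 1000 bp. Over all H3K27ac peaks the same widths had 3.89%, 5.98%, 8.92% and 16.7%. A wide peak has more bases that can be met, and this was not corrected for. Far intergenic peaks with Foxp4 were wider, at a median of 591 bp against 472 bp without, and had a higher median score, 41 against 37. By distance the share was 4.83% at 50 to 75 kb, 6.67% at 75 to 100 kb, 8.06% at 100 to 200 kb, 7.27% at 200 to 500 kb and 0 of 30 beyond 500 kb, with an interval up to 11.6%. Of the 24 far intergenic peaks with a CpG island 0 overlapped Foxp4, with an interval up to 14.2%.

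**Figure D5:**
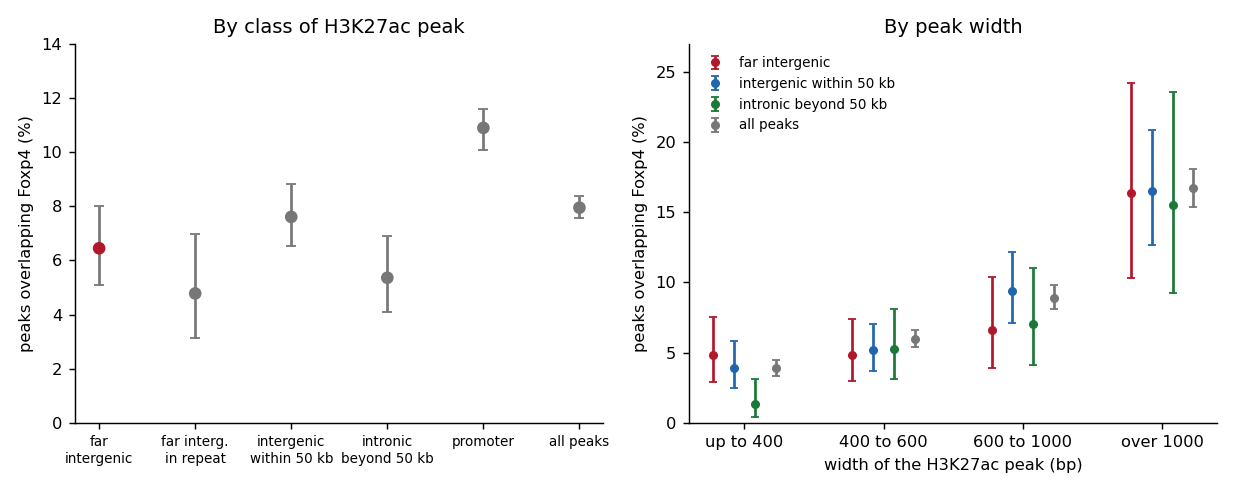
Percentage of H3K27ac peaks sharing at least 1 bp with a Foxp4 peak (y axes) by class of peak (left) and by width of the H3K27ac peak in bp (right); points are shares and bars exact 95% intervals of counting error. Far intergenic peaks (red) stand at 6.45% overall and at 16.4% where wider than 1000 bp, near the 16.7% of all peaks of that width.

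The 10 highest-scoring far intergenic peaks with Foxp4 were assigned to Swap70, Wnt7b, Gm4668, Rbx1, Far2, Mki67, Zeb1, Sgk1, D030024E09Rik and Sp110, with H3K27ac scores from 122 to 63. Their Foxp4 peaks had scores, on the scale of the Foxp4 list, of 24 at Swap70, 28 at Wnt7b, 48 at Gm4668, 21 at Rbx1, 26 at Far2, 21 at Mki67, 33 at Zeb1, 66 at Sgk1, 36 at D030024E09Rik and 93 at Sp110. The Foxp4 score of 93 was the highest among the 75, and the H3K27ac peak it met was 538 bp wide. Far2 encodes a fatty acyl-CoA reductase that makes fatty alcohols, and Mki67 the proliferation marker Ki-67.

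Foxp4 peaks that met a far intergenic H3K27ac peak had a median score of 34 (quartiles 28 and 41). The median was 33 for the 1389 Foxp4 peaks that met any H3K27ac peak and 27 for all 16856 on chromosomes 1 to 19. The Foxp4 list piles up at 6 single score values that together hold 12388 peaks. Of the 75 peaks 33 (44.0%) had such a recurrent score, against 37.1% of those that met any H3K27ac peak and 73.1% of all. Seen from the other list, 2139 Foxp4 peaks were themselves intergenic, without a repeat and beyond 50000 bp, and 78 of them (3.65%, interval 2.89 to 4.53) met an H3K27ac peak. The 2139 peaks had a median score of 27, and 79.9% of them had a recurrent score.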

How the data were processed

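Per the submitters' processing notes, Bowtie2, Picard, SAMtools, MACS2, deepTools 3.3.0 and mm10 were used. Per the file headers, HOMER annotatePeaks.pl annotated each deposited list, the peaks of 1 library, on mm10. The call threshold and the use of the input in calling were not given in the sources used here, and the input library is not used here. The deposited score of each peak is the authors' whole number and was compared only within its list. Depth is unknown.

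Peaks overlapped when they shared at least 1 bp. A promoter peak has its centre within 1000 bp of a TSS in the deposited distances. A Foxp4 score was recurrent where at least 100 peaks held it, over 3 times the count of its neighbours. Genes and start windows came from RefSeq GRCm38.p6, and all 667 assigned genes were found there. The 53 peaks on chromosome 18 were not compared with start windows. Sequence was read only from RefSeq start windows, so the planned motif search in whole peaks was not run. Members, gene lists and rules were chosen with earlier results of these data known. Genes were named by fixed ranks: the 10 highest, 5 widest and 5 farthest peaks, the 5 on each side of the distance limit, the 10 highest with Foxp4, the 10 genes with most peaks (12 with ties), the 5 largest groups (7 with ties) and up to 4 genes per list. Other genes, the fifth and later genes of a list, the stretches between genes and the printed windows were chosen after their values were seen. A further gene list is not reported here. Of the list entries 3 were unmatched or off chromosomes 1 to 19. Scripts ran on scipy 1.17.1, pandas 2.3.3, matplotlib 3.10.9 and numpy 2.4.6 under Python 3.11.15, and were tested on simulated data.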

Additional observations from a re-analysis of the deposited data

How the results depend on the processing

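Of 40 alternative values for the 5 main results, 21 stayed within the interval of the main value. With the distance limit at 25000 bp the median width was 495 bp and the clustered share 50.6%, and at 100000 bp they were 459 bp and 42.7%, against 474 bp and 47.2%. Within the higher-scoring 50% of the H3K27ac list, the median score was 51.0, the median width 600 bp, the clustered share 39.4%, the Foxp4 overlap 9.17% and the share of assigned genes with a promoter peak 24.5%. The Foxp4 overlap, 6.45% by 1 shared bp, was 2.58% where at least 50% of the peak had to be covered, 3.44% where the peak centre had to lie in a Foxp4 peak, 12% within 1000 bp, 4.82% with the higher-scoring 50% of the Foxp4 list and 3.61% without recurrent Foxp4 scores (5.04% of all H3K27ac peaks). The clustered share was 34.9% with neighbours within 5000 bp and 56.0% within 25000 bp. The share of assigned genes with a promoter peak, 33.0%, was 38.4% with a window of 3000 bp, 14.4% with the authors' promoter class and 42.0% for protein-coding genes. Including repeats or the sex chromosomes, or leaving out peaks in RefSeq gene bodies or at RefSeq starts, an alternative chosen after seeing the data, kept every value within its interval. Window, overlap and list settings change the values by their own construction. No paired analysis was possible because each antibody had 1 library. Read depth and spread between cultures are unknown, so each value describes 1 library.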
